A study of Mus musculus with 1814 samples.

Results

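The proteasome genes of mouse germinal center B cells are described here, taken as all genes whose symbol starts with Psma, Psmb, Psmc, Psmd, Psme, Psmf or Psmg followed by a digit. This naming rule found 50 of the 25125 genes in the table of cells sorted over time, and 48 of the 15177 genes in the table of genotypes, which holds neither Psma8 nor Psmb11. They comprise 8 genes of the 20S alpha ring, 7 of the constitutive 20S beta ring, 4 inducible or thymic beta subunits, 6 ATPases and 14 other genes of the 19S particle, 5 activator genes, 1 inhibitor, 4 chaperones of 20S assembly, and Psmc3ip. Psmc3ip shares the stem of the name but encodes a factor of homologous recombination. It is no part of the proteasome, yet it is counted in the totals and medians that follow.

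Single cells were sorted from germinal centers of lymph nodes into plates, and their mRNA was sequenced by SmartSeq2, a full-length protocol in which amplified molecules carry no identifiers. Experiments 1, 3 and 4 hold 965 cells kept here. In experiments 3 and 4 these are Dec+ cells of the dark and light zones at 12, 30, 46 and 60 h, while experiment 1 gives a dark zone group, Dec+ at 30 h, and a pair of light zone groups at 12 h, Dec+ and Dec-. For that dark zone group of experiment 1, the samples' labels and one column of the deposited cell table give 30 h, while the group names in another column give 36 h, and 30 h is used here. Dark zone wells of an experiment 2 at 30 and 60 h were not analysed here. Experiment 5 holds 373 cells labelled KO, TA or WT on plates named Ccnd3, from both zones. The labels do not say what Dec marks, what KO and TA change, whether PB in experiment 1 names a cell type, or which animal a cell came from. Those of the KO, TA and WT cells carry no time, and those of the timed cells no genotype.

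The proteasome degrades proteins that are tagged with ubiquitin. Its 20S barrel has rings of alpha subunits, which gate the entry, and of beta subunits, of which Psmb5, Psmb6 and Psmb7 cut peptide bonds. The 19S cap binds the ubiquitin chain, removes it, and unfolds the substrate with a ring of ATPases, Psmc1 to Psmc6. In lymphocytes, Psmb8, Psmb9 and Psmb10 take the places of Psmb5, Psmb6 and Psmb7 and form the immunoproteasome, which with the activator of Psme1 and Psme2 makes peptides for presentation on MHC class I. Germinal center B cells divide quickly in the dark zone and are selected by T cells in the light zone, and cyclins are removed by the proteasome in each division.

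The 3 promoters below belong to genes on which results turn: Psmb5, lower in KO than in WT cells of both zones, Psmc1, higher in both S and G2M than in G1, and Psme1, higher in KO than in WT light zone cells. They are RefSeq sequences of GRCm38.p6, from 250 bases before to 50 bases from the start of the gene, written 5′ to 3′ on the gene's strand. Psmb5 lies on the minus strand at chr14:54617946-54618245, Psmc1 on the plus strand at chr12:100109952-100110251, and Psme1 on the plus strand at chr14:55578244-55578543. Capitals mark a match to a searched motif: TGACNNNGC, the core bound by NRF factors, in Psmb5, CCAAT, the site of NF-Y, in Psmc1, and GAAA, any 2 bases, GAAA, the core bound by interferon regulatory factors, in Psme1.
Psmb5: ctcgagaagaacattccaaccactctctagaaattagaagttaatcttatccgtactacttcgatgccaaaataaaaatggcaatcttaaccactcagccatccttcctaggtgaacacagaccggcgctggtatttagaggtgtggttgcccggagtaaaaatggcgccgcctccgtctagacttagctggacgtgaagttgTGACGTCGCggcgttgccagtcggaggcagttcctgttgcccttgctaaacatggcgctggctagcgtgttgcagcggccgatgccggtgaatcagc
Psmc1: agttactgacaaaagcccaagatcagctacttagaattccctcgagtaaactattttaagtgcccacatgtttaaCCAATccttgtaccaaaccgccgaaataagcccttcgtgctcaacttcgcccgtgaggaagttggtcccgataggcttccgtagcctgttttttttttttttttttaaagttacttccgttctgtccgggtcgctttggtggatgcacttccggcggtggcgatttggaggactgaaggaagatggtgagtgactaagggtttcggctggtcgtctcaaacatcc
Psme1: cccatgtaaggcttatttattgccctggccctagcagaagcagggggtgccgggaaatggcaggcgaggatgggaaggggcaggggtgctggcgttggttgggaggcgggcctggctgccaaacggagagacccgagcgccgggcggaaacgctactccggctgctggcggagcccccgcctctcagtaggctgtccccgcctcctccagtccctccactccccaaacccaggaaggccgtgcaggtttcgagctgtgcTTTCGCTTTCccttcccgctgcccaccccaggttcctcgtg
A RefSeq promoter was found for 42 of the 50 genes, and both strands were searched. TGACNNNGC was in 6 of the 42 promoters, those of Psmb5, Psmb6, Psmc6, Psmd12, Psmd9 and Psme4, and in 12.4% of all 32851 promoters. CCAAT was in 15 of the 42 and in 37.4% of all. The paired GAAA was in 5 of the 42, those of Psmb3, Psmd4, Psmd9, Psme1 and Psmg4, and in 3.44% of all. CACGTG, the E-box that MYC binds, was in 4 of the 42 and in 7.15% of all. These are matches of letters and show no binding.

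Median counts per cell lay between 155485 in experiment 5 and 417104 in experiment 1, and proteasome genes took between 0.814 and 1.38% of all counts per experiment. All levels below are CPM, the counts of a gene in a sum of cells scaled to a total of 1000000, which is not divided by transcript length, so levels are compared between groups and not between genes. All 6 B cell markers and all 6 germinal center B cell markers were present in every sum of both zones. T cell markers together took 24.8 to 131.7 CPM in the sums of Dec+ cells over time, and myeloid markers 0 to 46.3 CPM. Plasma cell markers took 623 to 4351 CPM. Fewer cells of a type and less RNA per cell cannot be told apart in such sums. Psma8, a testis form of an alpha subunit, and Psmb11, the thymic beta subunit, were near 0 everywhere and were not tested, which left 48 genes in each test over time, zone and phase. Psme2b is a near-identical copy of Psme2, and how reads were split between the pair is uncertain.

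Genes of the immunoproteasome were expressed in both zones at all times, and no proteasome gene passed the test between zones. The zones were compared in 7 pairs of summed Dec+ cells, each pair from 1 experiment and 1 time, with edgeR's quasi-likelihood test and Benjamini-Hochberg adjustment over all 9302 genes. Psmb8 averaged 1179 ± 231.2 CPM over dark zone sums and 1253 ± 275.4 CPM over light zone sums (SD, n = 7 sums each). Psmb9 averaged 322.7 ± 75.7 CPM over dark zone sums and 373 ± 68.2 CPM over light zone sums, and Psmb10 133.2 ± 59.6 and 156.1 ± 76.4 CPM in the same order of zones. For the constitutive partners, Psmb5 averaged 291.5 ± 59.6 CPM over dark zone sums and 296.2 ± 37.5 CPM over light zone sums, and Psmb6 349 ± 78.2 and 380 ± 139.5 CPM.

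At an adjusted p under 0.05, dark zone cells had 0 of the 48 genes higher and 0 lower, while 0.183% of all genes were called higher and 0.14% lower. A gene that missed the threshold in so few sums is not shown to be equal between groups. DESeq2 also called 0, with 3.42% of all genes called higher and 1.66% lower. At an unadjusted p under 0.05, 4 were higher and 0 lower, with 6.29% of all genes higher and 3.12% lower by that rule. That split moved with the fit: RLE size factors and DESeq2 each gave 4 higher and 3 lower, and leaving out experiment 3 or experiment 4 gave 1 higher and 2 lower. The shares of all genes by that rule are given for the main fit only, so nothing is concluded from the counts of the other fits. The 4 higher genes of the main fit were Psmb7, the constitutive trypsin-like subunit, Psma1 of the alpha ring, Psmd8 of the 19S lid and Psmd10, a chaperone of 19S assembly also called gankyrin. Psmb7 ranged from 131.9 to 207.3 CPM in dark zone sums with a median of 163.3, and from 88.4 to 174.95 CPM in light zone sums with a median of 109.3. The ranges overlapped, and Psmb7 was higher in the dark zone in 7 of 7 pairs, by 0.52 ± 0.17 (log2 ± SE, adjusted p = 0.303 by edgeR's quasi-likelihood test). The share of all genes on the same side in 7 of 7 pairs is not given here. Nothing is therefore concluded from that count, for Psmb7 or for Psmb9 below. Psma1 had a log2 difference of 0.40, Psmd8 of 0.35 and Psmd10 of 0.66, all dark over light. At the other end lay Psmc3ip at -0.68, Psme2b at -0.51 and Psme3 at -0.42.

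Psmb9 took the opposite side. It ranged from 198.7 to 408 CPM in the dark zone sums and from 250.4 to 442 CPM in the light zone sums, and it was lower in the dark zone in 7 of 7 pairs, though by only -0.22 ± 0.12 (log2 ± SE, adjusted p = 0.604 by edgeR's quasi-likelihood test). The CPM ratio of Psmb10 to Psmb7, the subunit it replaces, had a median of 0.694 in the dark zone and 1.12 in the light zone. For Psmb8 over Psmb5 the medians were 4.03 in the dark zone and 4.15 in the light zone, and for Psmb9 over Psmb6 they were 0.921 and 1.05. Since CPM is not per length, such a ratio can be set against itself between groups but does not count proteins. Over the 48 genes the median log2 difference was -0.06, beside 0.20 over all genes, and 20 of the 48 were above 0, beside 64.8% of all genes. The cell cycle phase annotated by the authors also differed between zones. Of light zone Dec+ cells, 44.5, 45.5, 32.1 and 38.5% were called G1 at 12, 30, 46 and 60 h, with experiment 1 included. In the dark zone these shares were 50, 25.7, 26 and 29.3%. The part of phase in the zone values was not tested.

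**Figure D1:**
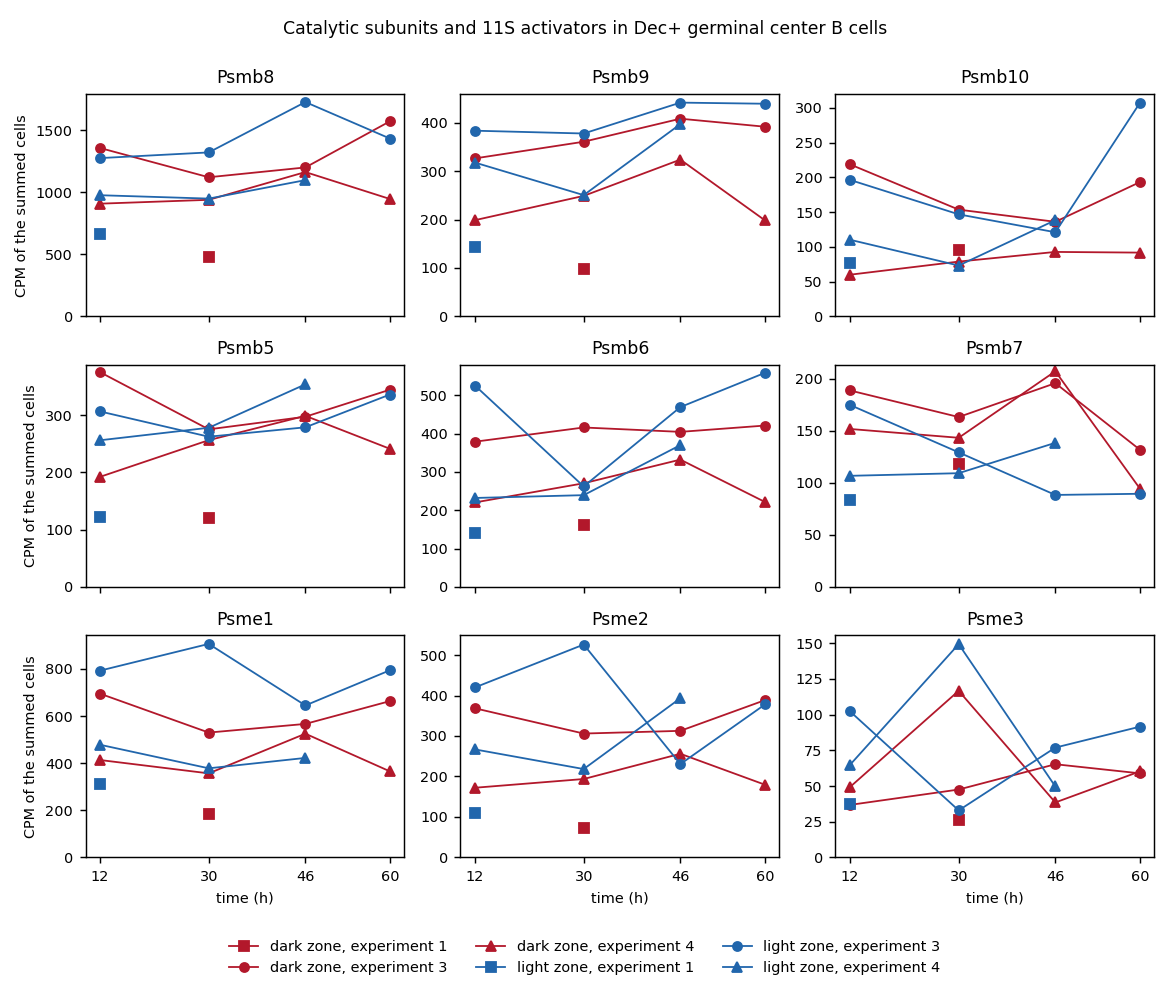
CPM of the summed Dec+ cells (y axis, from 0) against hours (x axis) for Psmb8, Psmb9 and Psmb10, for the subunits they replace, and for Psme1, Psme2 and Psme3. Each point is 1 sum of cells, red for dark and blue for light zone, with lines joining sums of 1 experiment. Psmb9 lies lower in the dark zone in each of 7 pairs, and Psmb7 higher, and neither passed the test.

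No proteasome gene passed the test between times in dark zone cells, where all 6 pairs of times were compared over 11661 genes and 0% of all genes were called in any pair by edgeR. At 46 h most proteasome genes lay a little above their 12 h level, and at 60 h most lay below their 46 h level. At 46 against 12 h, 41 of the 48 genes were above 0, beside 49.6% of all genes, with a median log2 difference of 0.30 beside -0.01 over all genes. Proteasome genes together took 1.45 and 1.43% of counts at 46 h in experiments 3 and 4, and 1.40 and 1.14% at 12 h. The size of this shift differed between the experiments: without experiment 3 the median was 0.55, with 45 of 48 genes above 0, and without experiment 4 it was 0.18, with 29 of 48.

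At an unadjusted p under 0.05, 4 of the 48 genes were higher at 46 than at 12 h and 0 lower, beside 2.61% and 1.7% of all genes. Psmd3, a scaffold subunit of the 19S lid, had 141.1 and 208.5 CPM at 46 h in experiments 3 and 4, and 110.9 and 72.1 CPM at 12 h. The log2 difference was 1.06 ± 0.40 (SE, adjusted p = 1 by edgeR's quasi-likelihood test). The 2 times did not overlap, but with 2 sums a time in these experiments nothing is concluded from that. Psmb2, a beta subunit without a cutting site, had 290.1 and 362 CPM at 46 h and 245.97 and 166.8 CPM at 12 h (log2 0.77). Psmg1, a chaperone that starts the alpha ring, had 117.8 and 83.7 CPM at 46 h and 51.8 and 43.2 CPM at 12 h (log2 1.17). Psmc3ip was the other gene of the 4, at 36.8 and 38.5 CPM at 46 h, against 5.94 and 16.2 CPM at 12 h. The lowest ratios of that pair of times were Psmf1 at -0.33, Psmd13 of the lid at -0.16 and Psmd5, a chaperone of the 19S base, at -0.07.

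At 60 against 46 h the median over the 48 genes was -0.34, beside 0.01 over all genes, and 8 of the 48 were above 0, beside 51.7% of all genes. Without experiment 3 that median was -0.66, without experiment 4 it was -0.11 with 15 of 48 above 0, and with equal weight of cells it turned to 0.06 with 25 of 48 above 0. Psmb7, Psmb4 of the beta ring and the ATPase Psmc2 were lower at an unadjusted p under 0.05, beside 0.686% of all genes. Psmb7 had 131.9 and 94.5 CPM at 60 h and 195.9 and 207.3 CPM at 46 h in experiments 3 and 4 (log2 -0.96). Psmb4 had 215.2 and 186.7 CPM at 60 h and 364 and 329.8 CPM at 46 h, and Psmc2 had 226.8 and 131.2 CPM at 60 h and 278.01 and 289.1 CPM at 46 h. The lowest ratio of that pair was that of Psmg2, the partner of Psmg1, at -1.12. At 30 against 12 h, 27 of the 48 genes were above 0, beside 50.8% of all genes, and 0 were higher and 0 lower at an unadjusted p under 0.05, beside 1.43% and 0.755% of all genes. At 60 against 12 h, 24 of the 48 were above 0, beside 52.1% of all genes, with 1 higher, Psmc3ip, and 0 lower by that rule, beside 1.1% and 0.566% of all genes. The medians over the 48 genes were 0.07 at 30 h and -0.01 at 60 h, both over 12 h. Both moved with the weight of cells: with equal weight of cells, 47 of 48 lay above 0 at 30 h with a median of 0.60, and 41 of 48 at 60 h with a median of 0.46, beside 0.21 and 0.15 over all genes. At 46 h the same weighting gave 0.34 with 42 of 48. Without experiment 4 the median at 30 h was -0.08, with 20 of 48 above 0. In these and the other pairs of times the highest and lowest ratios were those of Psme4 (1.76) and Psmf1 (-0.52) at 30 over 12 h, Psmc3ip (1.92) and Psmg2 (-0.80) at 60 over 12 h, Psmg1 (0.66) and Psme4 (-0.66) at 46 over 30 h, and Psmc3ip (0.50) and Psmg2 (-0.59) at 60 over 30 h. DESeq2 called 0 proteasome genes in each of the 6 pairs, where it called between 0.00858 and 0.78% of all genes in a direction.

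Phase moved with time in these cells. The authors' annotation called 50% of dark zone cells G1 at 12 h, 25.7% at 30 h, 26% at 46 h and 29.3% at 60 h, and its part in the differences between times was not tested. In light zone cells, 0 of 48 genes were called by edgeR at 30, 46 or 60 h against 12 h, and DESeq2 called 1, Psmf1, lower at 60 h, where it called 4.72% of all genes lower. At 46 h, 0.0343% of all genes were called higher and 0.437% lower, and at 60 h 0.0172% and 0.103%. At an unadjusted p under 0.05, 0 genes differed at 30 h, 0 at 46 h and 3 at 60 h, with 3.45%, 11.5% and 7.03% of all genes in either direction. The 3 at 60 h were lower: Psmf1, which binds the 20S barrel as an inhibitor in vitro, Psmd1, a scaffold of the 19S base, and Psmd12 of the lid. The 60 h light zone group is a single sum, so these p-values and the DESeq2 call assume that it varies like the sums of the other times. Psmf1 had 23.5 CPM in the only light zone sum of 60 h, of 21 cells, against 74.8 and 95.1 CPM at 12 h in experiments 3 and 4.

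**Figure D2:**
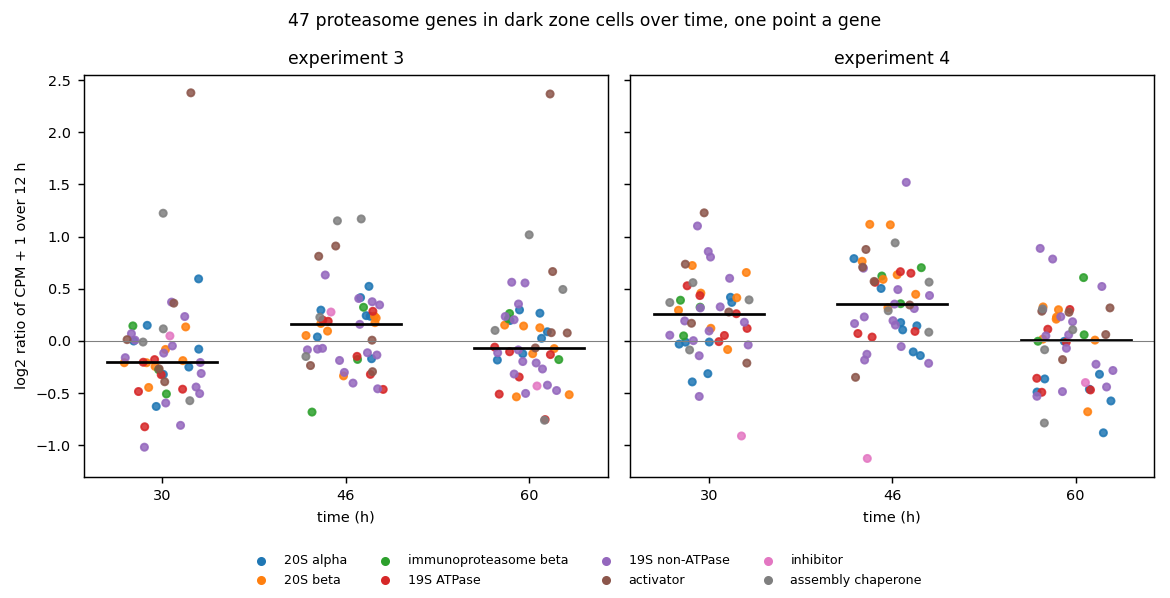
Log2 ratio of CPM + 1 at 30, 46 and 60 h over 12 h in dark zone cells (y axis), 1 point for each of 47 genes without Psmc3ip, coloured by role, in experiments 3 (left) and 4 (right); black bars are medians. At 46 h the medians of both experiments lie above 0, and at 60 h they lie close to 0.

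Of the comparisons with a test, those between cell cycle phases called proteasome genes. In dark zone cells that the authors annotated as S, 7 of 48 genes rose over cells annotated as G1, and in G2M cells 1 gene rose, each in edgeR's quasi-likelihood test over 9287 genes with the experiment and time as block. None fell. Of all genes, 4.74% rose and 1.69% fell in S, and 4.08% rose and 1.17% fell in G2M. The 7 genes were Psmc3ip, the ATPases Psmc5 and Psmc1, Psma1 and Psma5 of the alpha ring, the 19S scaffold Psmd1, and Psmb2. The phase was annotated on these same cells from their expression, and S cells, G2M cells and G1 cells were summed in 8, 7 and 8 sums.

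Psmc5, one of the ring of ATPases that unfolds substrates, ranged from 168.6 to 371 CPM in S sums with a median of 296.8, and from 103.8 to 345 CPM in G1 sums with a median of 156.2. It was higher in S in 8 of 8 pairs, by 0.79 ± 0.19 (log2 ± SE, adjusted p = 0.0141). Psmc1, whose tail helps to open the gate of the barrel, ranged from 212.6 to 323.9 CPM in S sums, with a median of 270.4, and from 99.3 to 257.6 CPM in G1 sums, with a median of 185.01. Psmc1 was higher in S in 8 of 8 pairs, by 0.59 ± 0.16 (adjusted p = 0.0367), and it was also the gene that rose in G2M, by 0.68 ± 0.17 (adjusted p = 0.025), with 213.9 to 337.9 CPM. The other 4 ATPases also lay above 0 in S: Psmc2 at 0.56, Psmc3 at 0.62, Psmc4 at 0.60 and Psmc6 at 1.21, with none past the threshold.

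In the alpha ring, which gates the barrel, all 7 tested genes lay above 0 in S, and 2 of them rose. Psma5 ranged from 204.9 to 519 CPM in S sums with a median of 400.3, and from 138.4 to 336.8 CPM in G1 sums with a median of 234.9. The ranges overlapped, and Psma5 was higher in S in 8 of 8 pairs, by 0.71 ± 0.19 (adjusted p = 0.0298). Psma1 had a median of 938 CPM in S and 670.3 CPM in G1, a log2 difference of 0.52 ± 0.13 (adjusted p = 0.0176), and was higher in 7 of 8 pairs. Psmd1 had a median of 284.5 CPM in S and 150.2 CPM in G1, a difference of 0.99 ± 0.28 (adjusted p = 0.0366), in 6 of 8 pairs. Psmb2 had a median of 301.4 CPM in S and 238.5 CPM in G1, a difference of 0.55 ± 0.16 (adjusted p = 0.0425), in 7 of 8 pairs. All of these adjusted p-values are from edgeR's quasi-likelihood test.

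Psmc3ip, which assists recombination and is no part of the proteasome, ranged from 11.4 to 98.6 CPM in S sums and from 0 to 29.2 CPM in G1 sums, of which 6 of 8 had 0 counts. Its fitted log2 difference of 6.46 ± 1.61 depends on the prior count (adjusted p = 0.0189 by edgeR). Of the 14 tested 19S genes other than ATPases, 12 lay above 0, and 3 of the 4 assembly chaperones did. Of the constitutive beta ring 4 of 7 did, and of the activators 1 of 5, which was Psme3, the nuclear activator, at 1.26 ± 0.66. Psme4, another nuclear activator, had the lowest value in S, -1.06 ± 1.85, with an SE larger than the difference.

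The immunoproteasome subunits did not share this direction. In S against G1, Psmb8 had a log2 difference of -0.09 and Psmb9 of -0.01, with SEs of 0.10 and 0.16. Psmb10 ranged from 48.1 to 162.9 CPM in S sums with a median of 93.2, and from 60.2 to 335.8 CPM in G1 sums with a median of 165.5. It was lower in S in 8 of 8 pairs, by -0.77 ± 0.28, with an unadjusted p of 0.0124 and an adjusted p of 0.124 by edgeR's quasi-likelihood test, so it did not pass the threshold. The difference lay in experiment 3, with 48.1 to 162.9 CPM in S and 219.7 to 335.8 CPM in G1 sums. In experiment 4, Psmb10 had 50.7 to 96.1 CPM in S and 60.2 to 111.3 CPM in G1 sums. Without experiment 3 the log2 difference was -0.08, without experiment 4 it was -1.42, and with equal weight of cells it turned to 0.58. The CPM ratio of Psmb10 to Psmb7 had a median of 0.495 in S, 0.613 in G2M and 1.66 in G1, and that of Psmb8 to Psmb5 was 3.68 in S, 3.76 in G2M and 5.32 in G1. In G1 sums the ratio of Psmb10 to Psmb7 lay between 2.00 and 2.36 in experiment 3, and between 0.406 and 1.32 in experiment 4. These ratios also moved with the replaced subunits. Psmb7 was higher in S in 8 of 8 pairs, at 84.5 to 279.1 CPM in S and 71.2 to 148.2 CPM in G1 sums. Psmb5 was higher in S in 6 of 8 pairs, at 196.9 to 455.3 CPM in S and 123.9 to 338.8 CPM in G1 sums. The activator genes Psme1 and Psme2 lay at -0.05 and -0.30 in S, and at -0.27 and -0.49 in G2M, with none past the threshold.

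Over all 48 genes the median log2 difference was 0.42 in S and 0.27 in G2M, beside 0.18 over all genes in each, and 35 and 36 of the 48 lay above 0, beside 58.4% and 58.7% of all genes. The G2M median was 0.50 without experiment 3 and 0.11 without experiment 4, with 27 of 48 above 0. With equal weight of cells the medians were 1.95 in S and 1.51 in G2M, beside 0.49 and 0.48 over all genes. Cells called S had a median of 2684 to 4072 detected genes over their 8 sums, and cells called G1 had 1249 to 2642. The part of this difference in the results was not tested. The calls were lost by leaving out experiment 3 or experiment 4: without either, 0 of 48 genes passed in S and 0 in G2M. DESeq2 called 16 in S, of which 15 were higher and Psmb10 lower (adjusted p = 0.0325), where it called 10.8% of all genes higher and 4.03% lower. In G2M it called 8, of which 6 were higher and Psme2 and Psme4 lower, where it called 8.51% of all genes higher and 3.12% lower.

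The same phases were set side by side in dark zone cells of experiment 5, which the test had not used and which give 1 sum a phase and so no test. Psmc1 had 236.2 CPM in S and 76.7 CPM in G1 cells of WT, and 207.6 and 174.8 CPM in TA. Psma1 had 1070 CPM in S and 568 CPM in G1 cells of WT, and 907 and 427 CPM in TA. Psmc5 had 168.3 CPM in S and 57.7 CPM in G1 cells of WT, but 131.4 CPM in S and 131.1 CPM in G1 cells of TA. Psma5 went the other way in WT, with 211.1 CPM in S and 269.4 CPM in G1, and Psmd1 in TA, with 178.5 and 294.7 CPM. Psmb10 had 33.5 CPM in S and 47.2 CPM in G1 cells of WT, and 61.1 and 78.7 CPM in TA, lower in S in both. KO dark zone cells held 2 cells called S and are not given.

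**Figure D3:**
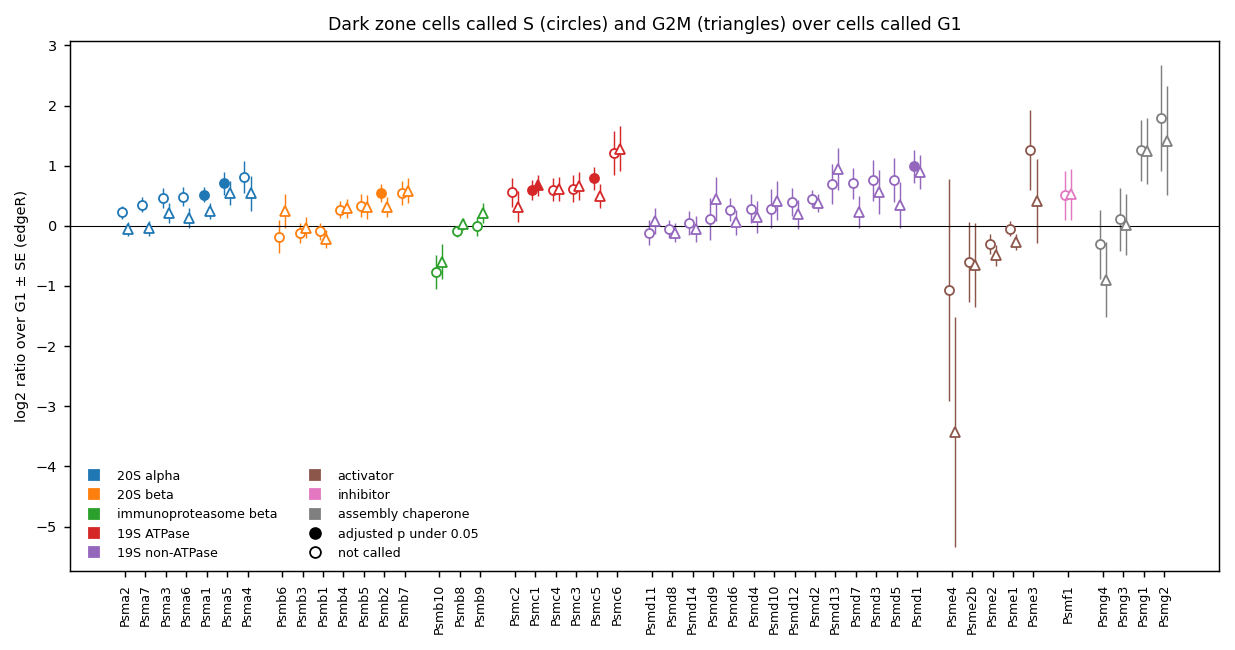
Log2 difference of S over G1 (circles) and G2M over G1 (triangles) in dark zone sums, by edgeR with SE bars (y axis), for 47 genes without Psmc3ip grouped by role (x axis); filled points passed an adjusted p under 0.05. All 6 ATPases lie above 0 in both phases, and Psmb10 lies below 0 in both.

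Genes that load peptides onto MHC class I, the step that uses the immunoproteasome's products, were tested in the same fit. Of the 10 genes on that list, 5 fell and 1 rose in S against G1, where 1.69% of all genes fell and 4.74% rose. In G2M 1 fell and 0 rose, beside 1.17% and 4.08% of all genes. DESeq2 called 6 lower and 1 higher in S, where it called 4.03% of all genes lower and 10.8% higher. In G2M it called 5 lower and 1 higher, beside 3.12% and 8.51% of all genes. H2-K1, a class I heavy chain, fell by 0.97 on the log2 scale (adjusted p = 7.45e-05 by edgeR's quasi-likelihood test), and the peptide transporter genes Tap2 and Tap1 fell by 0.95 and 0.60. B2m, the light chain, fell by 0.63 and H2-D1 by 0.58, and each of the 5 was lower in S in 8 of 8 pairs. Canx, a chaperone of the endoplasmic reticulum, rose by 0.66. The B cell markers together were also lower in S, at 8043 to 13185 CPM against 15042 to 19766 CPM in G1 sums. Germinal center B cell markers overlapped, at 2201 to 3263 CPM in S and 1487 to 3511 CPM in G1 sums. The fall is therefore not read as particular to peptide loading, and fits without an experiment are not given for these genes. Among 10 tested other proteins that bind the proteasome, Uchl5, a deubiquitinase of the 19S cap, rose by 0.95 ± 0.17 in S (adjusted p = 0.0019), and 0 fell, beside the same shares of all genes. Of 6 ubiquitin genes, 9 shuttle and extraction factors and 10 transcription factors of proteasome genes, 0 passed in S and 0 in G2M. At an unadjusted p under 0.05, 1 gene of each of these 3 lists differed in S, where 17.1% of all genes did, and DESeq2 called 1 ubiquitin gene, lower in S, and 0 of the others.

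Proteasome genes were mostly higher in Dec+ than in Dec- light zone cells at 12 h, in experiment 1. This comparison had 52 to 58 Dec+ and 26 to 28 Dec- cells on each of 3 plates of 1 experiment, so there is no test, and a gene is counted as higher or lower where CPM + 1 differed by more than 1.5-fold and the gene had at least 20 CPM in either group. Of 46 genes at that level, 18 were higher and 1 lower in Dec+ cells, where 29.2% of all genes were higher and 23.6% lower. The median log2 ratio over the 46 genes was 0.51, beside 0.07 over all genes, and 43 were above 0. On the 3 plates the medians were 0.42, 0.94 and 0.49.

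Apart from Psmc3ip, the 3 largest ratios were those of the 19S genes Psmd9, Psmd3 and Psmd7. Psmd3 of the lid had 245.3 CPM in Dec+ cells (95% exact Poisson interval 242.7 to 247.9, counting error only) and 81.9 CPM in Dec- cells (79.5 to 84.5), a log2 ratio of 1.57 and between 1.17 and 1.91 on the 3 plates. Psmc1 had 218.6 CPM in Dec+ and 99.9 CPM in Dec- cells, a ratio of 1.12, and between 0.89 and 1.28 by plate. Psmd9, a chaperone of 19S assembly, had 70.2 CPM in Dec+ and 15.6 CPM in Dec- cells, with plates from 0.80 to 3.52. Psmd7, which pairs with the deubiquitinase Psmd14 in the lid, had 219.3 CPM in Dec+ and 88.01 CPM in Dec- cells, and Psmd1 had 361 and 162.95 CPM. Psmc3ip had 31.6 CPM in Dec+ and 6.23 CPM in Dec- cells. All 14 genes of the 19S other than ATPases were above 0, with a median of 0.65, and so were all 7 of the alpha ring, with a median of 0.72. Psmb2 of the beta ring had 165.98 CPM in Dec+ and 73.6 CPM in Dec- cells (log2 1.16).

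Of the immunoproteasome subunits none was past 1.5-fold. Psmb8 had 661 CPM in Dec+ and 603 CPM in Dec- cells (log2 0.13), Psmb9 had 142.5 and 105.2 CPM (0.43), and Psmb10 had 76.9 and 74.1 CPM (0.05). Plates disagreed in the sign of all 3. Psme2b was the gene that was lower, at 10.3 CPM in Dec+ and 52.6 CPM in Dec- cells, while Psme2, with which it shares reads, had 110.7 and 74.2 CPM. Of the 10 genes for peptide loading on MHC class I, 5 were higher and 1 lower in Dec+ cells, beside the same 29.2% and 23.6% of all genes.

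Dec+ cells had a median of 2880.5 detected genes and Dec- cells 2259.5, and 42.2% of the Dec+ and 58.8% of the Dec- cells were called G1. Among cells called G1 alone, 70 Dec+ and 47 Dec- cells, 29 genes were higher and 2 lower of 44, where 39.4% of all genes were higher and 29.2% lower, with a median log2 ratio of 0.94 beside 0.19 over all genes. There Psmd3 had 280.5 CPM in Dec+ and 69.5 CPM in Dec- cells, and Psmb5 had 141.2 and 37.2 CPM. The largest ratio in G1 cells was that of Psma5, with 405 CPM in Dec+ and 53.2 CPM in Dec- cells, followed by Psmg2, with 110.5 and 15.2 CPM, and Psmb2, with 267.97 and 42.3 CPM. The immunoproteasome subunits were also higher there, Psmb10 with 104.1 CPM in Dec+ and 43.9 CPM in Dec- cells (log2 1.22) and Psmb9 with 186.1 and 97.99 CPM (0.92), both past 1.5-fold, while Psmb8 stood at 0.55.

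**Figure D4:**
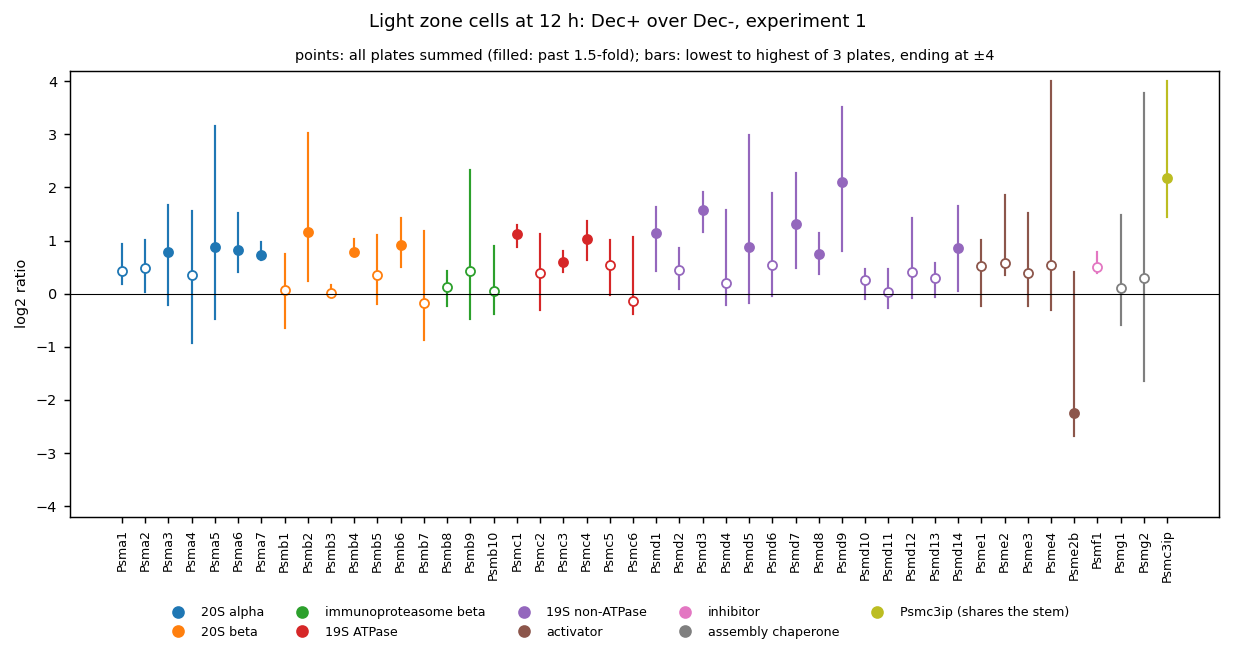
Log2 ratio of CPM + 1 in Dec+ over Dec- cells of the light zone at 12 h (y axis) for 46 genes by role (x axis). Points are all plates summed, filled past 1.5-fold, and bars run from the lowest to the highest of 3 plates, cut at 4; most points lie above 0, and those of Psmb8 and Psmb10 lie near it.

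KO cells of the dark zone had lower levels of many constitutive proteasome genes than WT cells, and a higher level of Psmb9. With 62 KO and 82 WT cells from 1 experiment there is again no test. Of 44 genes at 20 CPM or more, 2 were higher and 18 lower in KO cells, where 20.5% of all genes were higher and 29.6% lower. The median log2 ratio was -0.38 beside -0.16 over all genes, 8 of the 44 were above 0, and the medians on the 4 plates were -0.27, -0.64, -0.57 and -0.10. Of the 6 ATPases none was above 0, and their median was -0.56.

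Psmf1, the inhibitor, had 23.8 CPM in KO (interval 20.8 to 27.2) and 71.2 CPM in WT dark zone cells (66.5 to 76.3), a log2 ratio of -1.54 that was below 0 on all 4 plates. Psmd1 had 117.7 CPM in KO and 266.02 CPM in WT cells, with plates from -1.85 to -0.97. The same sign on all 4 plates was seen for Psmd3, with 20.6 CPM in KO and 52.7 CPM in WT cells, for Psmd6 of the lid, with 150.3 and 362 CPM, and for Psmd7, with 50.1 and 131.6 CPM. Psmc3, an ATPase, had a log2 ratio of -1.08, and Psme3 had 26.4 CPM in KO and 59.2 CPM in WT cells. Each of these 7 genes lay below 0 on every plate.

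Psmb9 had 238.4 CPM in KO (interval 228.6 to 248.6) and 138.04 CPM in WT dark zone cells (131.3 to 144.9), a log2 ratio of 0.78, and it was above 0 on 4 of 4 plates, from 0.19 to 1.22. Psmb8 had 438 CPM in KO and 501 CPM in WT cells, and Psmb10 had 35.9 and 37.6 CPM, both with plates of either sign. Psmb5, the partner of Psmb8, had 70.9 CPM in KO and 109.8 CPM in WT cells. Psmg1 was the other higher gene, at 35.6 CPM in KO and 14.4 CPM in WT cells, with plates from -0.60 to 4.95.

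In the light zone, with 61 KO and 41 WT cells, 4 genes were higher and 11 lower in KO cells of 46, where 27.7% of all genes were higher and 28.4% lower. Psmb5 had 49.02 CPM in KO (interval 44.6 to 53.9) and 129.5 CPM in WT cells (119.9 to 139.7), a log2 ratio of -1.38 with plates from -2.01 to -0.89. Psme1 and Psme2, which form the activator that works with the immunoproteasome, were higher: Psme1 had 454 CPM in KO and 282.9 CPM in WT cells, with plates from 0.07 to 0.87, and Psme2 had 274.1 and 142.1 CPM. Psma4 had 145.8 CPM in KO and 87.6 CPM in WT cells. Psme4, a nuclear activator, had 21.2 CPM in KO cells, from 5 of 61 cells, and 0 counts in the WT cells, which allows up to 0.58 CPM. The 3 lowest ratios were those of Psmc3ip, with 2.86 CPM in KO and 39.9 CPM in WT cells, Psmd5, with 18.97 and 65.4 CPM, and Psmg1, with a log2 ratio of -1.40, the last a gene that was higher in KO cells of the dark zone.

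The CPM ratio of Psmb8 to Psmb5 was 6.18 in KO, 3.61 in TA and 4.56 in WT dark zone cells, and 12.4 in KO, 13.2 in TA and 3.43 in WT light zone cells. That of Psmb9 to Psmb6 was 2.18 in KO, 1.37 in TA and 1.03 in WT dark zone cells, and 2.86, 1.49 and 1.45 in the light zone. Irf1, a transcription factor that binds promoters of immunoproteasome genes, had 40.1 CPM in KO and 4.73 CPM in WT dark zone cells, and 146.2 CPM in KO and 17.02 CPM in WT light zone cells. Its log2 ratio was 2.84 and 3.03, and above 0 on every plate of both zones. In TA cells Irf1 had 26.04 CPM in the dark and 75.2 CPM in the light zone, also above the WT values. Of the transcription factors listed, 4 were higher and 2 lower of 8 at 20 CPM in KO dark zone cells, and 4 and 2 of 10 in KO light zone cells, beside the shares of all genes given above. In TA cells 4 were higher and 1 lower of 9 in the dark zone, beside 17.9% and 19.9% of all genes, and 2 and 1 of 10 in the light zone, beside 29% and 32.3%. B2m had 2710 CPM in KO and 853 CPM in WT light zone cells. Nfyc, a subunit of NF-Y, had 17.2 CPM in KO and 60.0 CPM in WT dark zone cells, and 37.7 and 85.2 CPM in the light zone. Of the 10 MHC class I loading genes, 3 were higher and 0 lower in KO dark zone cells, and 4 and 0 in KO light zone cells, where 20.5% and 27.7% of all genes were higher. Of 9 other proteins that bind the proteasome, 2 were higher and 2 lower in KO dark zone cells. Adrm1, a ubiquitin receptor of the 19S cap, had 41.8 CPM in KO and 93.3 CPM in WT dark zone cells, while the ubiquitin ligase Ubr4 had 90.1 CPM in KO and 28.9 CPM in WT dark zone cells.

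Several other measures moved with the KO label. In KO dark zone cells 77.4% were called G1 and 3.23% S, against 46.3% and 24.4% of WT cells. Mitochondrial transcripts took a median of 10.8% of counts in KO and 6.93% in WT dark zone cells. The 10 interferon response genes together took 1062 CPM in KO and 495 CPM in WT dark zone cells, and 1295 and 554 CPM in the light zone. T cell markers took 386 CPM in KO and 71.8 CPM in WT dark zone cells, with 1 and 3 of 9 at 0, and plasma cell markers 5585 and 2566 CPM. In the light zone 73.8% of KO and 36.6% of WT cells were called G1, and mitochondrial transcripts took a median of 10.4% in KO and 6.52% in WT cells. T cell markers took 94.7 CPM in KO and 38.7 CPM in WT light zone cells, with 0 and 5 of 9 at 0, and plasma cell markers 3448 and 1459 CPM. The 4 myeloid markers took 49.6 CPM in KO light zone cells, and all 4 were at 0 in WT light zone cells. Their part in the proteasome values was not tested. Among cells called G1 alone, 48 KO and 38 WT dark zone cells, 5 genes were higher and 12 lower of 45, where 26.9% of all genes were higher and 33.1% lower, with a median of -0.26 beside -0.14 over all genes. There Psmf1 had 25.9 CPM in KO and 49.5 CPM in WT cells, and Psmb9 had 218.6 and 132.8 CPM. In light zone cells called G1, 45 KO and 15 WT, 13 genes were higher and 11 lower of 45, where 39.1% of all genes were higher and 32.6% lower.

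**Figure D5:**
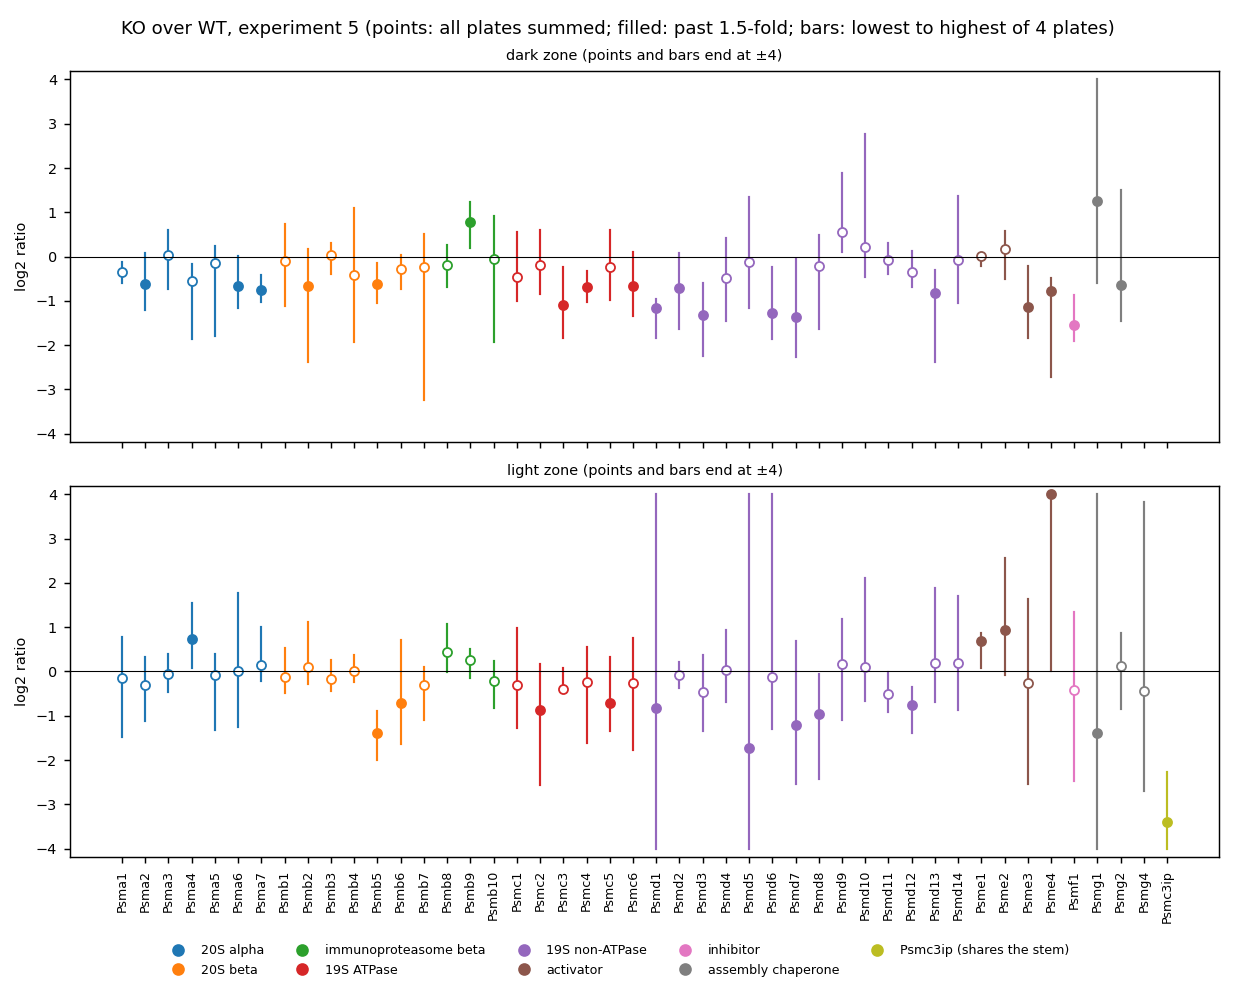
Log2 ratio of CPM + 1 in KO over WT cells (y axis) in the dark zone (top) and light zone (bottom) for genes by role (x axis). Points are all plates summed, filled past 1.5-fold, and bars run from the lowest to the highest of 4 plates, both cut at 4; in the dark zone most points lie below 0 with Psmb9 above it, and in the light zone Psmb5 lies below 0 and Psme1 and Psme2 above it.

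In TA cells of the dark zone 4 genes were past 1.5-fold of the same WT cells. With 24 to 26 TA cells on each of 4 plates, and 82 WT cells, 3 genes were higher and 1 lower of 44, where 17.9% of all genes were higher and 19.9% lower, and the median was 0.13 beside -0.03 over all genes. Psmb10 had 59.1 CPM in TA (interval 55.6 to 62.7) and 37.6 CPM in WT cells, and was above 0 on 3 of 4 plates. Psmd4, a ubiquitin receptor of the 19S, had 97.6 CPM in TA and 166.1 CPM in WT cells and was below 0 on all 4 plates. Psmd3 had 55.6 CPM in TA and 52.7 CPM in WT cells, and Psmb9 had 171.4 and 138.04 CPM. In TA dark zone cells 22.8% were called G1 and 45.5% S, interferon response genes took 799.6 CPM in TA and 495 CPM in WT, and T cell markers 122.2 and 71.8 CPM. Among cells called G1 alone, 23 TA and 38 WT dark zone cells, 18 genes were higher and 5 lower of 46, where 32.5% of all genes were higher and 32.8% lower, and the median was 0.41. In KO dark zone cells called G1, 48 in number, 26.9% of all genes were higher and 33.1% lower. Held to G1, 18 proteasome genes were higher in TA cells and 5 in KO cells, but the share of all genes that were higher was also larger in TA. The TA group rests on 23 cells and the KO group on 48. No test was made of this, and the counts are not compared further.

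In the light zone, 22 TA and 41 WT cells gave 11 genes higher and 10 lower of 46, where 29% of all genes were higher and 32.3% lower. TA light zone cells had a median of 1780.5 detected genes against 2247 in WT, and 54.5% of TA and 36.6% of WT cells were called G1. Interferon response genes took 741 CPM in TA and 554 CPM in WT light zone cells, and T cell markers 76.01 and 38.7 CPM, and the part of these in the proteasome values was not tested. Only 3 of the TA cells came from plate 2, where the median was -3.14, against -0.33 to 0.26 on the other plates. Psmb5 had 54.8 CPM in TA and 129.5 CPM in WT light zone cells, and Psmb8 had 722 and 444 CPM. Psme1 had 456 CPM in TA and 282.9 CPM in WT light zone cells. The lowest ratio was that of Psmd12, with 91.9 CPM in TA and 345 CPM in WT cells, and Psme4 had 66.4 CPM in TA cells, from 3 of 22 cells. KO and TA cells share the WT cells as their comparison, so a low or high WT value enters both.

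Within experiment 5, the zone pattern was looked at in cells that the zone test had not used. Dark over light zone, 7 genes were higher and 5 lower of 46 in WT cells, where 24.7% of all genes were higher and 23.4% lower. In KO cells 3 were higher and 8 lower of 44, beside 19.2% and 26% of all genes. In TA cells 11 were higher and 4 lower of 45, beside 31.1% and 29.3%. Psmd10 had 89.6 CPM in dark and 58.6 CPM in light zone WT cells, 103.5 and 63.2 CPM in KO cells, and 96.7 and 46.5 CPM in TA cells, past 1.5-fold each time. Psmb9 had 138.04 CPM in dark and 235.1 CPM in light zone WT cells, 238.4 and 283.2 CPM in KO cells, and 171.4 and 184.3 CPM in TA cells. Psmb7, higher in the dark zone in 7 of 7 pairs of experiments 3 and 4, had 75.8 CPM in dark and 79.1 CPM in light zone WT cells, 64.1 CPM in each zone of KO cells, and 107.2 and 141.4 CPM in TA cells. Psmd8 had 219.7 CPM in dark and 272.3 CPM in light zone WT cells, 189.3 and 139.6 CPM in KO cells, and 251.7 and 273.97 CPM in TA cells. Psma1 was higher in the dark zone of all 3, with 730.4 CPM in dark and 540.3 CPM in light zone WT cells, 576 and 488 CPM in KO cells, and 725 and 472 CPM in TA cells.

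In experiment 1, the 42 Dec+ dark zone cells of 30 h and the Dec+ light zone cells of 12 h differ in zone and time at once. Of 45 genes, the dark zone cells had 3 higher and 15 lower, where 25% of all genes were higher and 32.4% lower. Psmg2 was lowest, with 23.6 CPM in dark zone cells and 71.1 CPM in light zone cells, and Psmd10 highest, with 54.5 and 30.0 CPM. Wells labelled PB were compared with the other dark zone wells of 30 h, with 34 and 42 wells of at least 100000 counts. Of 44 genes, 6 were higher and 6 lower in PB wells, beside 29.7% and 33.4% of all genes, with a median of -0.02. Psmd10 had 141.3 CPM in PB and 52.4 CPM in the other wells, Psmb5 had 222.3 and 114.9 CPM, and Psmb8 had 635 and 457 CPM. Psmg1 had 10.0 CPM in PB and 70.7 CPM in the other wells, and Psmb9 had 56.8 and 93.96 CPM.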

How the data were processed

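Cells were sequenced by SmartSeq2. The deposited values are expected counts per gene and cell, which the authors made with STAR 2.6 and RSEM 1.3.1 on mm10, per the submitters' processing notes, and which need not be whole. Seurat 3.1.4 is also named there. The deposited cell tables give the percent of mitochondrial counts and the phase of each cell as the authors' own annotation. How reads shared by near-identical genes were split follows from that estimation.

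From these, expected counts of the cells of a group were summed and rounded, and CPM scales each sum to 1000000. Sums of at least 10 cells were tested with edgeR 4.0.16 (quasi-likelihood, TMM, filterByExpr) in R 4.3.3, with Benjamini-Hochberg adjustment over all genes and a threshold of 0.05. Zone and phase had the experiment and time together as block, and time had the experiment. DESeq2 1.42.0 and limma 3.58.1 were alternatives, and the fits were tested on simulated data. Cells of 1 sample are not replicates, and nothing says which animals the sums come from, so p-values measure the spread between sums. Where a group had 1 experiment no test was made: log2 ratios of CPM + 1, at 20 CPM or more in either group, with 1.5-fold as the limit and 95% exact Poisson intervals. Reads carry no molecular identifiers, so intervals and floors (3 counts) cover counting error only. Replicate blocks join sums that the labels give the same experiment and time, or for time the same experiment; no label names a shared harvest.

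All genes of the rule are accounted for by role. Values are given for Psmb8, Psmb9, Psmb10 and the subunits they replace, for Psme1, Psme2 and Psme3, and for members called by edgeR. They are also given for some of the members past 1.5-fold or called by DESeq2 alone, and for some of the 3 highest and 3 lowest ratios of each comparison. The members, gene lists and rules were chosen with earlier results of these data known. Over the combined time table and the plate table of experiment 1, 543 columns were not used: those of experiment 2, dark zone wells of 30 and 60 h whose names are shared by several plates and were not tied to samples, and the light zone wells of the plate table, whose cells were taken from the combined table. In experiments 3 and 4, 97 cells carry marks of both zones.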

Additional observations from a re-analysis of the deposited data

Results flagged for a closer look

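Some members lay on opposite sides of 0 in the 2 zones on every plate or in both experiments, under the same contrast. For none of these was the difference between the zones tested, and none of the single contrasts passed a test or could be tested. They were picked by sign alone, and the share of all genes with such signs is not given here. The pattern is therefore not read as particular to these members. Psma4, of the alpha ring, had a log2 ratio of KO over WT of -0.56 in the dark zone, below 0 on 4 of 4 plates, and of 0.73 in the light zone, above 0 on 4 of 4 plates. The time ratios below are means of the log2 ratios of CPM + 1 in experiments 3 and 4, not the fitted values. At 30 over 12 h, Psmb9 had 0.23 in the dark zone and -0.18 in the light zone, and Psmd4 had 0.20 and -0.34. At 46 over 12 h, Psma4 had 0.26 in the dark zone and -0.44 in the light zone, Psmg1 had 1.05 and -0.17, and Psmg3, an assembly chaperone, had 0.86 and -0.39. Each of these time ratios had its sign in experiments 3 and 4, which is 2 sums a zone and time. The sums of 12 h enter all of these time contrasts, so an unusual sum of 12 h would move several at once.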

How the results depend on the processing

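The absence of called members between zones and between dark zone times held under every alternative run: DESeq2, RLE factors, no filter, at least 20 cells a sum, equal weight of cells in limma, leaving out an experiment (0 to 0 called), and for zones leaving out cells marked for both. In the light zone over time DESeq2 called 1, and leaving out an experiment 0 to 0. The phase calls were the least stable. Of 7 in S over G1, 0 passed with at least 20 cells a sum, 16 with DESeq2 and 42 with equal weight of cells in limma, and 0 to 0 without an experiment. Of 1 in G2M over G1, the counts were 0, 8 and 38 under the same 3 alternatives, 3 with at least 5 cells a sum, and 0 to 0 without an experiment. Of these alternatives, the share of all genes called is given above for DESeq2 only. With equal weight of cells the median over all genes also rose. The counts of 42 and 38 are therefore not read as particular to proteasome genes. Without the replicate block 0 passed in S and 0 in G2M, while the paired fit is the one the design implies, and 0 in the zone and time fits. Every alternative kept the sign of the 8 single phase calls. No cause of these changes was tested.

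For the comparisons with 1 experiment a group, a 2-fold limit in place of 1.5-fold left 9 of 19 in Dec+ over Dec-, 8 of 20 in KO over WT and 0 of 4 in TA over WT in the dark zone, 6 of 15 in KO over WT and 9 of 21 in TA over WT in the light zone. It left 2 of 11, 4 of 15 and 4 of 12 in dark over light zone of KO, TA and WT, 3 of 18 in experiment 1 and 2 of 12 for PB. Cells called G1 alone, an alternative chosen after seeing the data, gave 31 in Dec+ over Dec-, 23 in TA over WT in the dark zone and 24 in KO over WT in the light zone. A pseudocount of 10 CPM gave 2 in TA over WT in the dark zone, and the mean CPM over cells gave 8 in experiment 1. Leaving out a plate gave 19 to 27 in Dec+ over Dec-. In the dark zone it gave 19 to 24 in KO over WT and 3 to 10 in TA over WT, the highest without plate 2. In the light zone it gave 14 to 19 and 19 to 22. In dark over light zone it gave 11 to 18 in KO, highest without plate 1, 13 to 23 in TA, highest without plate 4, and 11 to 20 in WT, highest without plate 2. Apart from cells called G1, the shares of all genes under these alternatives are not given. The counts therefore show how far the number of members moves, and they are not read as particular to proteasome genes. Cells differ in depth by more than 100-fold within experiment 3, and genes near 20 CPM rest on few cells.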
